A study of Rattus norvegicus with 256 samples.

Results

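The xenobiotic-sensing receptors described here are the pregnane X receptor PXR (Nr1i2), the constitutive androstane receptor CAR (Nr1i3), the aryl hydrocarbon receptor (Ahr) and the stress-sensing factor Nrf2 (Nfe2l2), together with the partner proteins retinoid X receptor alpha (Rxra) and Arnt. Every probeset that the RAE230_2 array annotation assigns to one of these symbols was taken, which gave 7 probesets of 6 genes out of 31042 probesets and 14217 named genes. Ahr had a pair of probesets (1369146_a_at and 1369147_at) and each other gene had 1: Nr1i2 1369270_at, Nr1i3 1368797_at, Arnt 1369244_at, Nfe2l2 1367826_at and Rxra 1369101_at. The rule itself uses no measured value.

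Organs were collected from 5 male and 5 female untreated Han Wistar-derived rats (AlpkHsdBrlHan:WIST), whose age is not given in the sources used here, and RNA of each organ of each animal was hybridised to its own array. The arrays covered 31 organs, of which 26 were taken from both sexes (115 male and 119 female arrays) and 5 were sex-specific (testes, epididymis, prostate, ovary and uterus, 22 arrays). The 57 groups of organ and sex held 2 to 5 arrays, and the male gastrocnemius had the fewest. RNA came from whole organs or organ pieces, so that fewer cells of a type and less RNA per cell cannot be told apart in any value below.

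PXR and CAR are nuclear receptors that bind drugs, bile acids and steroids, pair with RXR alpha on DNA, and induce cytochrome P450 enzymes of the CYP3A, CYP2B and CYP2C families, conjugating enzymes and efflux transporters, above all in liver and intestine. Ahr rests in the cytosol with chaperones, enters the nucleus when it binds dioxins or other planar aromatic ligands, and pairs with Arnt to switch on Cyp1a1 and its relatives. Nrf2 is held in the cytosol and degraded through Keap1 until electrophiles or oxidants release it, after which it induces glutathione and quinone-reducing enzymes, so that its mRNA level need not follow its activity.

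In the rat genome build GRCr8 the RefSeq gene of Nr1i2 lies on chromosome 11 (75965717 to 76006733), Nr1i3 on chromosome 13 (86165327 to 86170362), Ahr on chromosome 6 (57961423 to 57998901) and Arnt on chromosome 2 (185686703 to 185745546). Nfe2l2 (81001529 to 81031165) and Rxra (31387892 to 31474415) both lie on chromosome 3. Which exon or untranslated region each probeset targets is not given in the sources used here.

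The upstream sequence is shown for the 3 nuclear receptor genes, whose levels were all highest in liver, and for Nfe2l2, which was above the expression threshold in every organ. Each is the 250 bases before the transcript start that the RefSeq-based promoter table (GRCr8) lists for the gene. For Nr1i3 and Nfe2l2 that start lies inside the gene's span given above, so that part of the Nr1i3 window and all of the Nfe2l2 window lie within it. The sequences are written 5′ to 3′ on the gene's strand, with every CpG dinucleotide in capitals: chr11:75965467-75965716 (plus strand) for Nr1i2, chr13:86165170-86165419 (plus strand) for Nr1i3, chr3:31387642-31387891 (plus strand) for Rxra and chr3:81029000-81029249 (minus strand) for Nfe2l2.
Nr1i2: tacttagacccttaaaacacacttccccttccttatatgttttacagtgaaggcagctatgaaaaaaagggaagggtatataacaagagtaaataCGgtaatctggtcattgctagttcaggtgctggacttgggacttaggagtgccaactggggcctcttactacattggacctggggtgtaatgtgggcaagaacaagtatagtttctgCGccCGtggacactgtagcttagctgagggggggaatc
Nr1i3: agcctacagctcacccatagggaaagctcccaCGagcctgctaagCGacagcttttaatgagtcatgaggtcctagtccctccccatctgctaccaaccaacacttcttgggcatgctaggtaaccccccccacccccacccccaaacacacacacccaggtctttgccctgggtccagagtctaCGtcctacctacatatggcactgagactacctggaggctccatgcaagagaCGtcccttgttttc
Rxra: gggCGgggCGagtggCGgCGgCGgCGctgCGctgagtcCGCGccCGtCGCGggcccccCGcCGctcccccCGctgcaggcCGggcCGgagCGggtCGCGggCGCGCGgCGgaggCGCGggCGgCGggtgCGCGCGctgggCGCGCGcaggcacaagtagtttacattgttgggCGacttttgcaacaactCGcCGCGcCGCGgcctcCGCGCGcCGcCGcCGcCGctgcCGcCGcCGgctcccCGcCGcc
Nfe2l2: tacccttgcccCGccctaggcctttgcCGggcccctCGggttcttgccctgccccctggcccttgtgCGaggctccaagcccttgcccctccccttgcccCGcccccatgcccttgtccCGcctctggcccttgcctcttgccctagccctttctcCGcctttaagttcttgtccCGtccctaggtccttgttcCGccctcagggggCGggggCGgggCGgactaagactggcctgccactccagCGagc

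The windows of Nr1i2 and Nr1i3 held 3 and 4 CpG dinucleotides with 46.0% and 55.6% G and C, those of Nfe2l2 and Rxra held 13 and 52 with 69.2% and 82.8%, and the median over 33465 rat promoters was 5 CpG. The unprinted windows of Ahr and Arnt held 32 and 8. Among the 6 windows Nr1i2 and Nr1i3 thus had the fewest CpG dinucleotides and Rxra, whose level was also highest in liver, had the most. The core of the Ahr-Arnt response element, GCGTG searched on both strands, stood once in the Arnt window and in none of the other 5 windows, against 25.9% of all promoters. The antioxidant response element TGACNNNGC, bound by Nrf2, was found 2 times in the Arnt window and in no other member's, against 10.1% of promoters. The nuclear receptor half-site AGGTCA was in none of the 6 windows (14.1% of promoters), nor was TATAAA (12.9%). GGGCGG was found 6 times in Nfe2l2, 2 times in Rxra and once in Ahr (30.5% of promoters), and CCAAT once each in Nr1i2 and Arnt (34% of promoters). A match to such letters is a description of the window and was not tested for binding.

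The array medians lay between 3.86 and 4.45 on the log2 scale, no 2 arrays were identical, and the list of marker genes of each organ's main cell type was highest in its own organ for liver, intestine, kidney, pituitary and pancreas. Sex-linked marker genes were at odds with the sex label in 4 arrays (aorta male 3, heart male 5, bone marrow male 5 and bone marrow female 2). The sex differences called below within an organ use none of these organs, and without these arrays the members had the same number of organ differences, sex differences and sex by tissue interactions called. Among single arrays of duodenum, liver, kidney and pituitary, another 3 stood apart from their group with high markers of another organ. Adrenal cortex markers averaged 8.83 in pituitary male 1 and 10.33 in pituitary female 1, and lung epithelium markers 11.51 in liver female 5. Arrays of the other organs are not covered by this statement. Without these 3 arrays the counts of organ differences (14), sex differences at an adjusted p under 0.05 (5) and interactions (4) were unchanged.

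The members fell into 3 kinds of organ pattern. Nfe2l2 had a mean above the study's expression threshold (a linear signal of 100.4, which is about 6.7 on the log2 scale) in all 31 organs, which 11.6% of all probesets did. Nr1i2 passed it in 2 organs, Nr1i3 and Rxra in 1 organ each, and 14.9% of all probesets passed it in 1 or 2 organs. Arnt and both Ahr probesets passed it in no organ, as 36.7% of all probesets did. The lowest organ means of every member except Nfe2l2 lay between 2.07 and 2.93, near the low end of the GCRMA values.

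An organ was called higher or lower for a probeset when its mean differed from the mean of the other 30 organs by more than 2-fold with an adjusted p under 0.05 (limma, Benjamini-Hochberg over all probesets) and the higher side was above the expression threshold. By this rule 14 organ differences were called among the members, 10 higher and 4 lower. Over all probesets and organs, 8% of comparisons were called higher and 3.96% lower. Liver was called higher for 3 of the 7 member probesets, against 7.79% of all probesets in liver. Jejunum was called higher for 1 of the 7, against 7.61%.

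**Figure D1:**
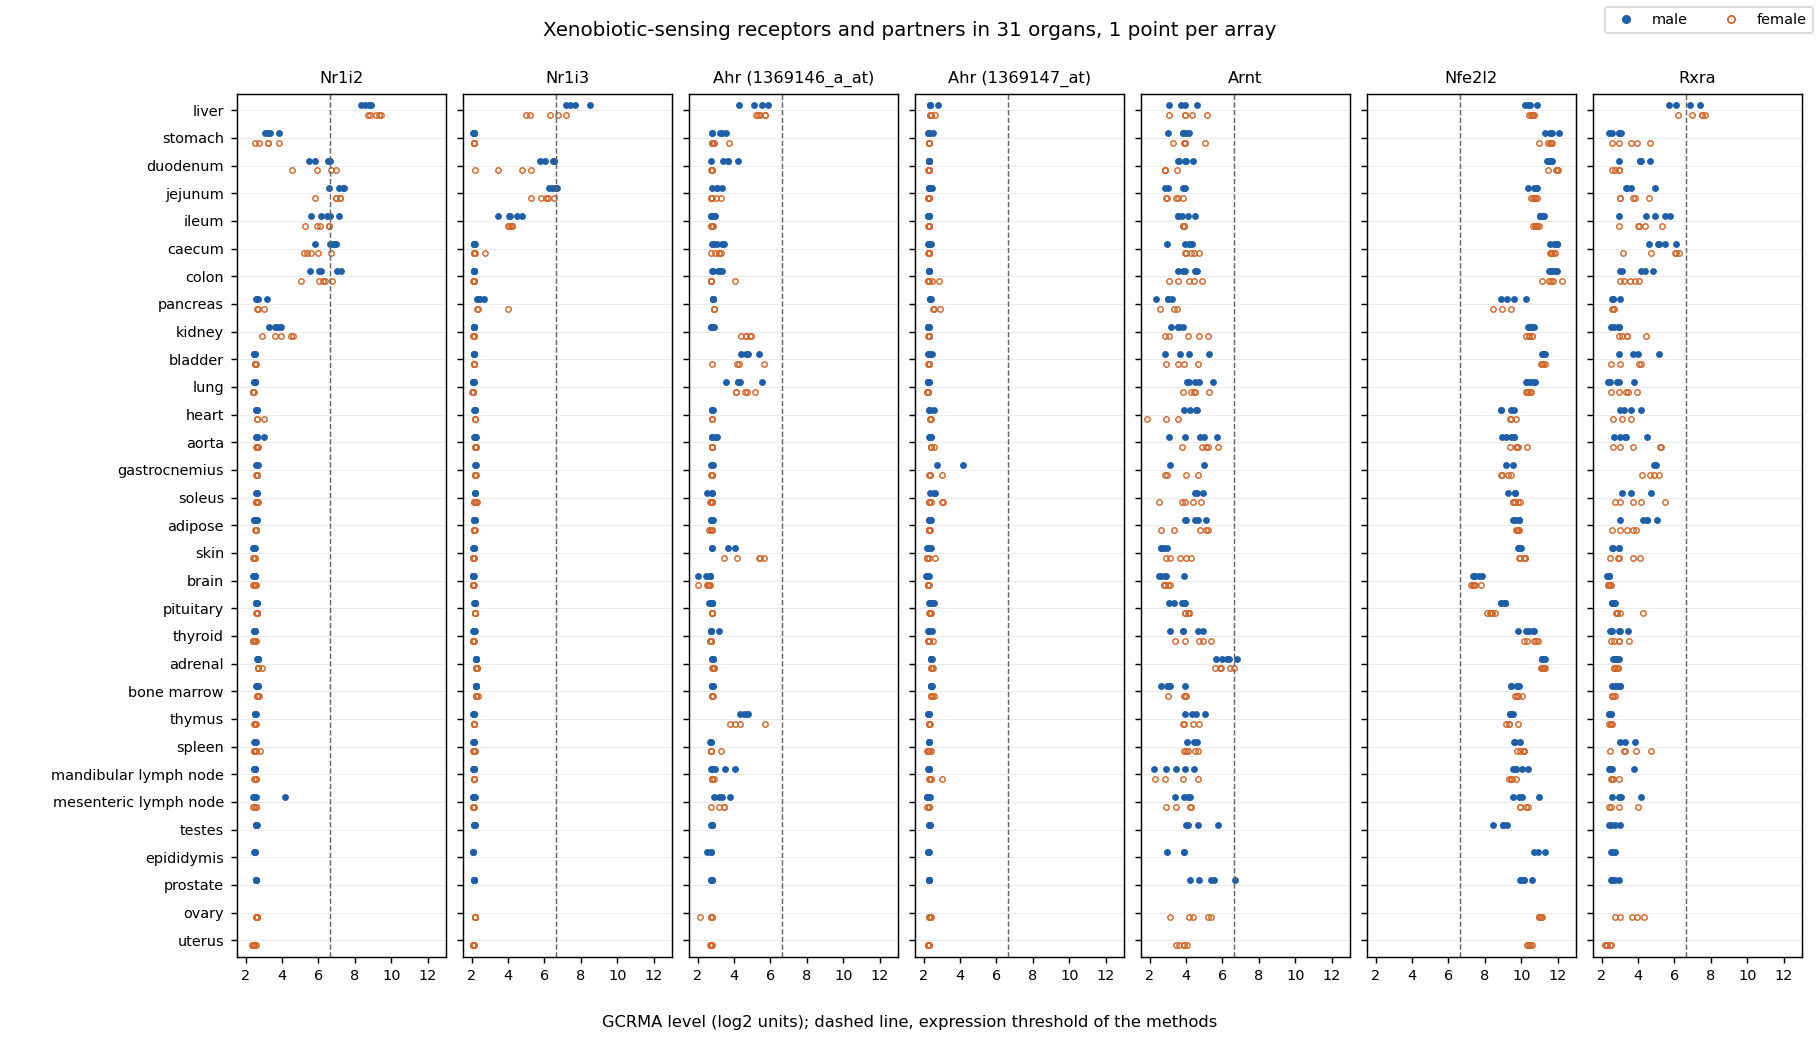
GCRMA log2 level of each of the 7 probesets in every array (points), with organs down the page, male arrays filled and above the open female arrays, and the expression threshold dashed. Nr1i2, Nr1i3 and Rxra peak in liver (organ means 8.86, 6.89 and 6.84), Nfe2l2 is above the threshold in all 31 organs, and Ahr and Arnt have no organ mean above it.

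Nr1i2, the PXR gene, was a gene of liver and bowel. Its 9 liver arrays ran from 8.33 to 9.46 with a median of 8.81, and the 9 jejunum arrays from 5.79 to 7.42 with a median of 7.15. All liver arrays thus lay above all jejunum arrays. The liver mean of 8.86 ± 0.36 (SD, n = 9) stood 5.60 log2 units above the other organs' mean of 3.26 (SE 0.11, adjusted p = 4.73e-112), and the jejunum mean of 6.97 ± 0.50 (n = 9) was 3.65 above that of the others (SE 0.11, adjusted p = 9.38e-79).

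Ileum (6.24), colon (6.24), caecum (6.19) and duodenum (6.12) formed a plateau for Nr1i2 just under the threshold, and no step between these neighbours passed the test. The next organ, kidney, was lower at 3.8, and its arrays (2.90 to 4.59) overlapped with the lowest duodenal array, 4.52. Stomach followed at 3.22 and pancreas at 2.76, and 23 of the 31 organs had a mean under 3. The steps between neighbours in the order of organs are described with limma's adjusted p, although the order comes from the same values. Of 30 such steps 5 had an adjusted p under 0.05: liver over jejunum (1.89), jejunum over ileum (0.73), duodenum over kidney (2.32), kidney over stomach (0.58) and stomach over pancreas (0.45). Over all probesets 46.6% of these same contrasts passed. Sorting by a member's own means keeps its steps small by construction, while the other probesets are not sorted in that order. The shares over all probesets given with such steps, here and for the other members below, are therefore no yardstick for a member's count. From liver to the lowest organ, uterus (2.45), Nr1i2 spanned 6.42 log2 units or 85.5-fold.

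Nr1i3, the CAR gene, was highest in the same organ but was above its floor in fewer segments of the bowel. The 9 liver arrays ran from 4.99 to 8.48 (median 7.16) and the 9 jejunum arrays from 5.28 to 6.67 (median 6.23), so that the groups overlapped. The liver mean of 6.89 ± 1.13 (SD, n = 9) stood 4.43 above that of the other organs, 2.46 (SE 0.094, adjusted p = 1.22e-108). This SE comes from 1 spread for all groups (residual SD 0.27), under the SDs of male (0.56) and female liver (0.94). Jejunum (6.24), duodenum (5.09) and ileum (4.15) came next, then pancreas at 2.66, where a single female array at 3.99 exceeded the organ's median of 2.34. In 27 of 31 organs the mean was under 3, and the whole range was 4.82 log2 units (28.2-fold).

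In the order of organs for Nr1i3, 5 of 30 neighbouring steps passed, against 48% of these contrasts over all probesets. The steps were liver over jejunum (0.65), jejunum over duodenum (1.15), duodenum over ileum (0.93), ileum over pancreas (1.49) and pancreas over bone marrow (0.40).

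Rxra, the partner of both receptors, was measured by its probeset above the threshold in liver and in no other organ. The 9 liver arrays ran from 5.72 to 7.67 (median 6.96) and the 10 caecum arrays from 3.19 to 6.26 (median 5.31), with some overlap. The liver mean was 6.84 ± 0.72 (SD, n = 9) against 3.27 in the other organs, a difference of 3.57 (SE 0.21, adjusted p = 1.25e-40). Caecum (5.27), gastrocnemius (4.84), ileum (4.43) and soleus (3.82) followed, and 12 organs had a mean under 3. The single step that passed of 30 was liver over caecum (1.58), against 54.2% of these contrasts over all probesets. The spread between arrays of a group was wider for Rxra (residual SD 0.6) than for Nr1i2 (0.33) or Nr1i3 (0.27).

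**Figure D2:**
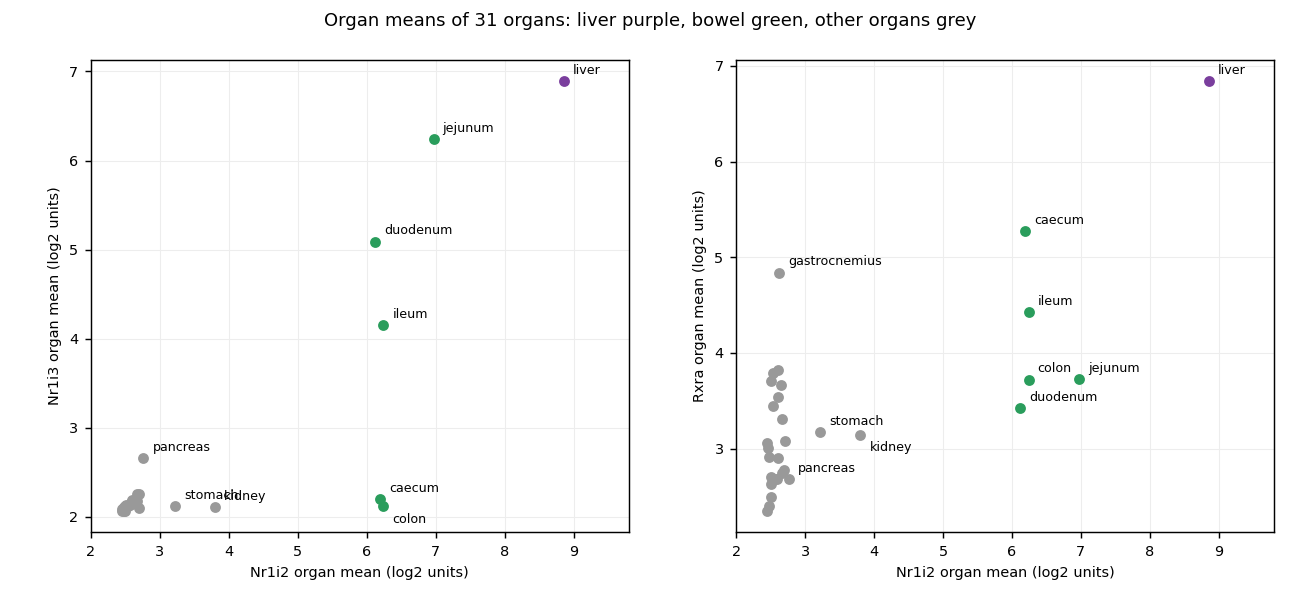
Organ means (log2) of Nr1i2 on the horizontal axes against Nr1i3 (left) and Rxra (right), 1 point per organ. Liver is at the top right for both pairs, and jejunum, duodenum and ileum are the next organs for Nr1i3, while colon and caecum have Nr1i2 near 6.2 and Nr1i3 at 2.12 and 2.20.

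Across the 31 organ means, Nr1i2 and Nr1i3 correlated with Pearson's r = 0.83 (Spearman's rho 0.73), Nr1i2 and Rxra with r = 0.72 (rho 0.57), and Nr1i3 and Rxra with r = 0.57 (rho 0.48). Organs share animals and most sit near the floor for these probesets, so these values are a description. Nr1i2 and Nfe2l2 gave r = 0.48 (rho 0.36). Ahr (1369146_a_at) and Arnt, which act as a pair, gave r = -0.03.

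The genes with the organ pattern most like Nr1i2, out of 15747 named probesets compared by Pearson's r over 31 organs, were Fabp1 (0.957), which carries fatty acids in liver and intestine, Cyp2j3 (0.954), Sema4g (0.941), Pklr (0.935), the liver pyruvate kinase, and Golt1a (0.927). For Nr1i3 they were Creb3l3 (0.986), a membrane-bound transcription factor of hepatocytes and enterocytes, Cps1 (0.967) and Otc (0.952), both urea cycle enzymes, and the apolipoproteins Apoc2 (0.965) and Apoa4 (0.956). For Rxra they were C8g (0.777), Stra6l (0.767), Cyp2d3 (0.764), Cyp2j3 (0.734) and Acox3 (0.731). Spearman's rho of these genes ran from 0.34 (Cyp2j3) to 0.92 (Golt1a) for Nr1i2. It ran from 0.51 (Otc) to 0.91 (Creb3l3) for Nr1i3 and from 0.49 (Stra6l) to 0.64 (Acox3) for Rxra. Cyp2j3, a cytochrome P450, stood in the lists of both Nr1i2 and Rxra.

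Gut segments were compared in order from stomach to colon, each with the segment before it. Both xenobiotic nuclear receptors were higher in duodenum than in stomach: Nr1i2 by 2.90 (adjusted p = 1.12e-44) and Nr1i3 by 2.96 (adjusted p = 3.14e-57), a contrast called in either direction for 35.9% of all probesets. Jejunum was again higher than duodenum, by 0.85 for Nr1i2 (adjusted p = 6.52e-06) and by 1.15 for Nr1i3 (adjusted p = 5.27e-14), against 9.77% of all probesets. Ileum was lower than jejunum, with a log2 difference of -0.73 for Nr1i2 (adjusted p = 8.09e-05) and of -2.09 for Nr1i3 (adjusted p = 1.53e-36), against 11.5% of all probesets.

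At the step into the large bowel Nr1i3 was lower again in caecum than in ileum (-1.95, adjusted p = 3.12e-35), and its caecum and colon means of 2.20 and 2.12 were at its floor. Nr1i2 had a caecum minus ileum difference of -0.05 (adjusted p = 1), and 19.5% of all probesets passed in this contrast. Rxra was higher in caecum than in ileum by 0.84 (adjusted p = 0.0138) and lower in colon than in caecum (-1.55, adjusted p = 1.29e-06). Colon and caecum differed for 12.5% of all probesets but not past the threshold for Nr1i2 (0.04, adjusted p = 1), Nr1i3 (-0.08, adjusted p = 0.99) or Nfe2l2 (-0.07, adjusted p = 1). Nfe2l2 was lower in jejunum than in duodenum (-1.02, adjusted p = 1.48e-14) and higher in caecum than in ileum (0.81, adjusted p = 1.82e-11). No gut step of Ahr or Arnt passed the test.

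**Figure D3:**
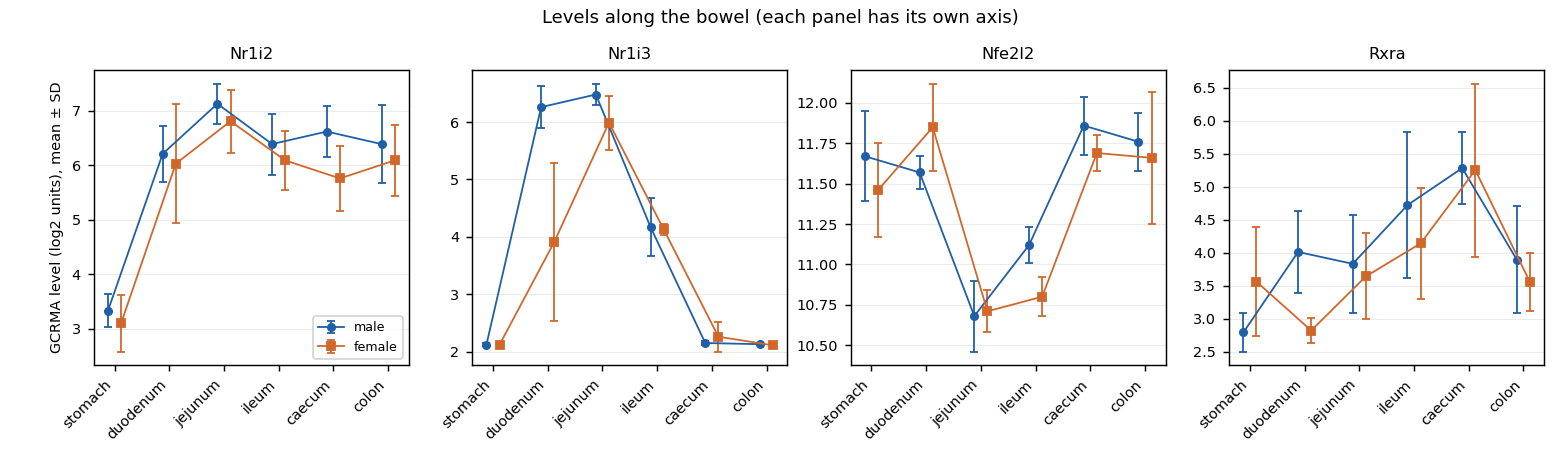
Mean log2 level ± SD of Nr1i2, Nr1i3, Nfe2l2 and Rxra in males (circles) and females (squares) from stomach to colon, each panel with its own axis. Nr1i2 means lie between 5.76 (female caecum) and 7.13 (male jejunum) from duodenum to colon, Nr1i3 peaks in jejunum and is at its floor in caecum (2.20) and colon (2.12), and Nfe2l2 is lowest in jejunum and ileum.

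Ahr was highest in liver at 5.33 ± 0.48 (SD, n = 9; probeset 1369146_a_at), where the arrays ran from 4.25 to 5.85 with a median of 5.42. Thymus (4.52), bladder (4.51), lung (4.45), skin (4.07) and kidney (3.73) followed. These are all under the expression threshold, so that none of the organ differences could be called, although the liver difference of 2.25 had an adjusted p of 1.5e-44. In 19 organs the mean was under 3. Of 30 neighbouring steps 3 passed, against 52.5% of these contrasts over all probesets: liver over thymus (0.81), lung over skin (0.39) and kidney over mesenteric lymph node (0.48).

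The other Ahr probeset (1369147_at) was under 3 in all 31 organs and spanned 0.74 log2 units in all. Its 1 passing step of 30 was gastrocnemius over soleus (0.41), against 48% over all probesets. That step rested on the male gastrocnemius, whose 2 arrays read 2.75 and 4.15, against 2.36, 2.33, 2.30 and 2.98 in females. Without male replicate 3 the whole range of the probeset was 0.39. The organ means of the 2 Ahr probesets correlated with r = -0.14 (rho -0.1), and Ahr is described below by 1369146_a_at.

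Genes most like Ahr over the organs were Ccl9 (r = 0.713), a chemokine, Avpr1a (0.673), the vasopressin receptor of liver, C4bpa (0.665), Fetub (0.662) and Gucy1b2 (0.659). These r values were lower than those of the likest genes of Nr1i2 and Nr1i3. Spearman's rho was 0.48 for Ccl9 and ran from 0.12 (C4bpa) to 0.22 (Gucy1b2) for the other genes.

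Arnt, which also partners the hypoxia-inducible factors, was highest in adrenal at 6.15 ± 0.41 (SD, n = 10; arrays 5.61 to 6.79), then in prostate (5.32), aorta (4.72), testes (4.63) and lung (4.52). It was lowest in pancreas (3.00) and brain (2.93). The adrenal difference of 2.22 from the other organs had an adjusted p of 8.64e-22 but the adrenal mean was under the threshold, so it was not called. Adrenal over prostate (0.83) was the 1 step of 30 that passed, against 54.6% of these contrasts over all probesets. The likest genes were Nubpl (r = 0.777), Babam2 (0.76), the methionyl- and glutamyl-prolyl-tRNA synthetases Mars1 (0.756) and Eprs1 (0.725), and the translation initiation factor subunit Eif3c (0.719).

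Nfe2l2 was present throughout and was highest in hollow organs of the gut. Caecum (11.77), duodenum (11.71), colon (11.71) and stomach (11.56) formed the top of the order with no step between them that passed. Each was called higher than the other organs, by 1.63, 1.56, 1.56 and 1.41 (caecum adjusted p = 1.22e-51). Bladder (11.20, difference 1.03) and adrenal (11.19, difference 1.02) were called close to the 2-fold limit. Bladder lost the call when arrays were centred on their medians, and adrenal lost it under quantile normalisation (0.97 in each case).

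At the other end, Nfe2l2 was called lower in 4 organs. Brain was the lowest at 7.50, with all 10 arrays between 7.23 and 7.83, and stood under the other organs (difference -2.79, adjusted p = 3.87e-89). Pituitary (8.68, difference -1.56), testes (8.92, -1.32) and pancreas (9.22, -1.01) were the others. The pancreas call was lost without male replicate 3 (-0.96), male replicate 5 (-0.92) or female replicate 4 (-0.89), and the pancreas difference was -0.41 under quantile normalisation. Of 30 neighbouring steps 3 passed, against 49.9% of these contrasts over all probesets: stomach over bladder (0.37), lung over prostate (0.29) and pituitary over brain (1.19). The genes most like Nfe2l2 were F11r (r = 0.836), a tight junction protein, Baiap2l1 (0.832), Clint1 (0.83), Rbm47 (0.814), an RNA-binding protein of epithelia, and C1h19orf33 (0.81).

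Most of the measured genes known to respond to PXR and CAR were called higher in liver. Of 17 measured members of that list of 24, 15 were called higher in liver, against 7.79% of all probesets. The list's median difference there was 6.66, against -0.04 over all probesets. Cyp2c7 reached 14.41 in liver (difference 11.96), Cyp2c6v1 14.03 (11.44), Cyp3a23-3a1 13.37 (10.86) and Cyp2b3 13.10 (10.64), all drug- and steroid-oxidising P450 enzymes. In duodenum 7 of the 17 were called higher (7.09% of all probesets) and in colon 7 (7.08%), while jejunum (7.61%), ileum (7.95%) and caecum (7.49%) each had 6. Across organs the list's genes correlated with Nr1i2 at a median r of 0.56 (all expressed probesets -0.07) and with Nr1i3 at 0.62 (-0.06). Cyp3a18 (0.92) and the efflux pump Abcc2 (0.88) were closest to Nr1i3, and Cyp3a9 (0.87) was closest to Nr1i2.

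Among the 9 measured transcription factors and coregulators that act with PXR and CAR, 4 were called higher in liver (7.79% of all probesets): Hnf4a (11.99, difference 7.49), Foxa2 (7.99, 4.52), the inhibitory partner Nr0b2 (8.24, 3.71) and the glucocorticoid receptor Nr3c1 (10.09, 1.13). In stomach 4 of the 9 were called higher too (5.57% of all probesets). Of the 16 nuclear receptors that pair with or replace RXR alpha, 5 were higher and 1 lower in liver (7.79% and 5.93% of all probesets), with a median difference of -0.11. The higher ones included the bile acid receptor Nr1h4 (10.12, difference 5.92), Rarb (10.34, 4.62), Rxrg (7.61, 3.75) and the oxysterol receptor Nr1h3 (9.86, 3.64). More of these 16 were called higher in aorta (8, against 6.77% of all probesets, median difference 1.6) and in adipose (6, against 7.28%). Of the 7 measured Ahr-inducible genes 2 were called higher in liver, where Ahr was highest: Cyp1a2 (12.96, difference 10.88) and the quinone reductase Nqo1 (9.73, 1.99). The median difference of the list in liver was -0.3, against -0.04 over all probesets. In bladder 4 of the 7 were called higher (7.56% of all probesets), with a median difference of 2.79: Cyp1a1 (8.55, difference 5.71), Aldh3a1 (8.63, 4.38), Nqo1 (10.64, 2.92) and Cyp1b1 (7.32, 1.01). The median r of this list with Ahr over organs was 0.24 (all expressed probesets 0). Of the 8 measured partners and regulators of Ahr, none was called higher and 2 were called lower in adrenal (4.83% of all probesets), where Arnt was highest.

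Of 22 measured Nrf2-inducible genes (27 listed), 13 were called higher and 1 lower in duodenum, against 7.09% and 2.5% of all probesets. Abcc2, Abcc3 and Ephx1 stand in this list and in that of PXR and CAR, and Nqo1 in this and that of Ahr. In caecum, the organ with the highest Nfe2l2, 8 were higher and 2 lower (7.49% and 1.87% of all probesets), with a median difference of 0.65 against -0.12 over all probesets. Examples in caecum were Akr7a3 (11.05, difference 5.86), which reduces aflatoxin aldehyde, the export pump Abcc3 (9.20, 4.70), Nqo1 (11.21, 3.51) and Gstp1 (13.49, 2.29). Kidney had 10 higher and 1 lower (7.74% and 2.34% of all probesets), as did liver (7.79% and 5.93%). In brain, where Nfe2l2 was lowest, 2 were higher and 4 lower (11.6% and 8.35% of all probesets), with a median difference of -0.93 (all probesets -0.17). The median r with Nfe2l2 across organs was 0.41 (all expressed probesets 0.03), and Gsr (0.74) and Txnrd1 (0.7), the glutathione and thioredoxin reductases, were the closest. Of the 10 measured regulators of Nrf2, the small Maf protein Mafk was called higher in caecum (8.13, difference 1.36).

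Male and female arrays were compared for the 7 probesets in the 26 shared organs, which gave 182 comparisons. By the study's rule for sexually dimorphic expression (more than 2-fold, adjusted p under 0.05 in limma, and a sex mean above the expression threshold) none was called, against 0.312% over all probesets and organs. At an adjusted p under 0.05 alone 5 were called, 4 higher in males and 1 higher in females, against 1.41% over all probesets and organs. At an unadjusted p under 0.05 there were 21, against 8.76%, and in 13 comparisons the male and female arrays did not overlap, against 3.94%. In 30 of the 182 comparisons a sex mean was above the threshold. No other comparison could meet the rule.

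The sex difference with the smallest adjusted p was that of Ahr in kidney. The male kidneys read 2.76, 2.73, 2.76, 2.88 and 2.75 for Ahr, at the floor of the probeset, and the female kidneys read 4.38, 4.85, 4.93, 4.64 and 4.67. All 5 female arrays lay well above all 5 male arrays. The means were 2.78 ± 0.06 in male and 4.69 ± 0.21 in female kidneys (SD, 5 arrays per sex), a male minus female difference of -1.91 (SE 0.095, limma adjusted p = 1.04e-05), or 3.77-fold higher in females. Both means were under the expression threshold. In kidney 6.01% of all probesets passed at the same adjusted p with lower values in males, and the call was kept in all 21 alternatives run (adjusted p 3.8e-13 to 0.00337).

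Cyp1a1, the most Ahr-responsive enzyme gene, was 5.11 ± 0.67 in male and 8.70 ± 0.62 in female kidneys (SD, n = 5 each; difference -3.59, adjusted p = 0.00082). It was the 1 of 7 measured Ahr-inducible genes that was lower in male kidney at an adjusted p under 0.05 (6.01% of all probesets). The list's median difference there was 0 (all probesets 0.01), and Nqo1 differed by -0.54 (adjusted p = 0.373). The markers of kidney proximal tubule averaged 11.9 to 12.28 per male array and 12.19 to 12.52 per female array, and 1 of its 7 genes (Cubn) differed, being lower in males. Of 7 hepatocyte markers 3 (Ttr, Fgb and Cps1) were lower in male kidneys. Their part in the Ahr result was not tested.

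Ahr in skin had the same direction without passing the test. Male skin read 3.67, 4.04, 2.81 and 2.76 and female skin 4.18, 3.42, 5.45, 5.63 and 5.39, so that the ranges overlapped (difference -1.5, adjusted p = 0.309). In skin 4.2% of all probesets had no overlap between sexes. Cyp1a1 in skin averaged 4.42 ± 0.58 in males (n = 4) and 6.10 ± 0.96 in females (n = 5), with a difference of -1.68 (adjusted p = 0.252). In duodenum the direction of Ahr was the other way, with males at 3.41, 2.75, 3.64, 4.19 and 3.67 and all females between 2.73 and 2.76 (difference 0.78, adjusted p = 0.0994), and Cyp1a1 there was 8.26 ± 1.5 in males (n = 5) and 4.55 ± 0.22 in females (n = 4; difference 3.71, adjusted p = 0.0189). Liver Ahr averaged 5.18 ± 0.7 in males (n = 4) and 5.47 ± 0.23 in females (n = 5), a difference of -0.29 (adjusted p = 0.752). Of the 7 measured Ahr-inducible genes 0 differed in skin at an adjusted p under 0.05 (0.135% of all probesets), with a median difference of -0.81. In duodenum 2 of the 7 were higher in males (6.04% of all probesets), with a median difference of 0.

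In duodenum, the male arrays were higher for Nr1i3, Arnt and Rxra, where 6.04% of all probesets were higher in males at an adjusted p under 0.05. Nr1i3 read 5.75, 6.46, 6.53, 6.55 and 6.02 in males and 2.20, 3.44, 5.25 and 4.74 in females. The groups did not overlap, but the females were spread over more than 3 log2 units, with means of 6.26 ± 0.36 in males (n = 5) and 3.91 ± 1.37 in females (n = 4). The difference of 2.35 (SE 0.59, limma adjusted p = 0.0458) was the largest male excess among the members, a fold of 5.11.

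Arnt in duodenum read 4.38, 4.01, 3.94, 3.58 and 3.62 in males against 3.52, 2.87, 2.84 and 2.84 in females, with no overlap (difference 0.89, SE 0.21, limma adjusted p = 0.037). Rxra read 4.11, 4.19, 4.13, 4.63 and 2.98 in males against 2.75, 2.58, 2.98 and 2.98 in females, where the lowest male equalled the highest females to the digits given (difference 1.18, SE 0.30, limma adjusted p = 0.0496). Nr1i2 was close between the sexes, at 6.21 ± 0.52 in males and 6.03 ± 1.09 in females. All 3 duodenal calls were fragile. The Nr1i3 call was lost without any 1 of the 5 males or without female replicate 2 or 5 (adjusted p 0.0586 to 0.118). The Arnt call was lost without male replicate 1, 2 or 3 or female replicate 2, 3 or 5, and the Rxra call without male replicate 1, 2, 3 or 4 or female replicate 1, 2, 3 or 5.

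Enterocyte markers moved with sex in duodenum. Of 9 measured, 6 (Vil1, Fabp1, Alpi, Akp3, Slc5a1 and Apoa4) were higher in males, and the list's mean was 12.13 to 13.24 in male arrays and 10.59 to 11.57 in female arrays. The pancreatic acinar list, which was high in duodenum, ranged from 11.66 to 13.53 in males and 10.37 to 12.95 in females with 0 of 8 genes differing, and smooth muscle from 11.3 to 12.11 in males and 11.8 to 13.32 in females with 0 of 6. Leukocyte markers were 5.74 to 6.23 in males and 4.85 to 5.71 in females, and 2 of 7 (Cd74 and Coro1a) were higher in males. The part of these markers in the receptor differences was not tested.

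In the next segments the sexes were closer for Nr1i3. Jejunum averaged 6.48 ± 0.19 in males and 5.99 ± 0.47 in females, and ileum 4.17 ± 0.51 in males and 4.13 ± 0.09 in females. The sex difference of Nr1i3 in duodenum exceeded that in jejunum by 1.86 (adjusted p = 2.84e-08), that in ileum by 2.32 (adjusted p = 1.4e-13) and that in liver by 0.75 (adjusted p = 0.0422), in a fit over all groups. These organ pairs were chosen after the values had been seen. That fit uses 1 spread for all groups (residual SD 0.27 for Nr1i3), most of them at the floor. The SD was 1.37 in female duodenum and 0.94 in female liver, so these adjusted p do not measure the spread of the groups compared.

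**Figure D4:**
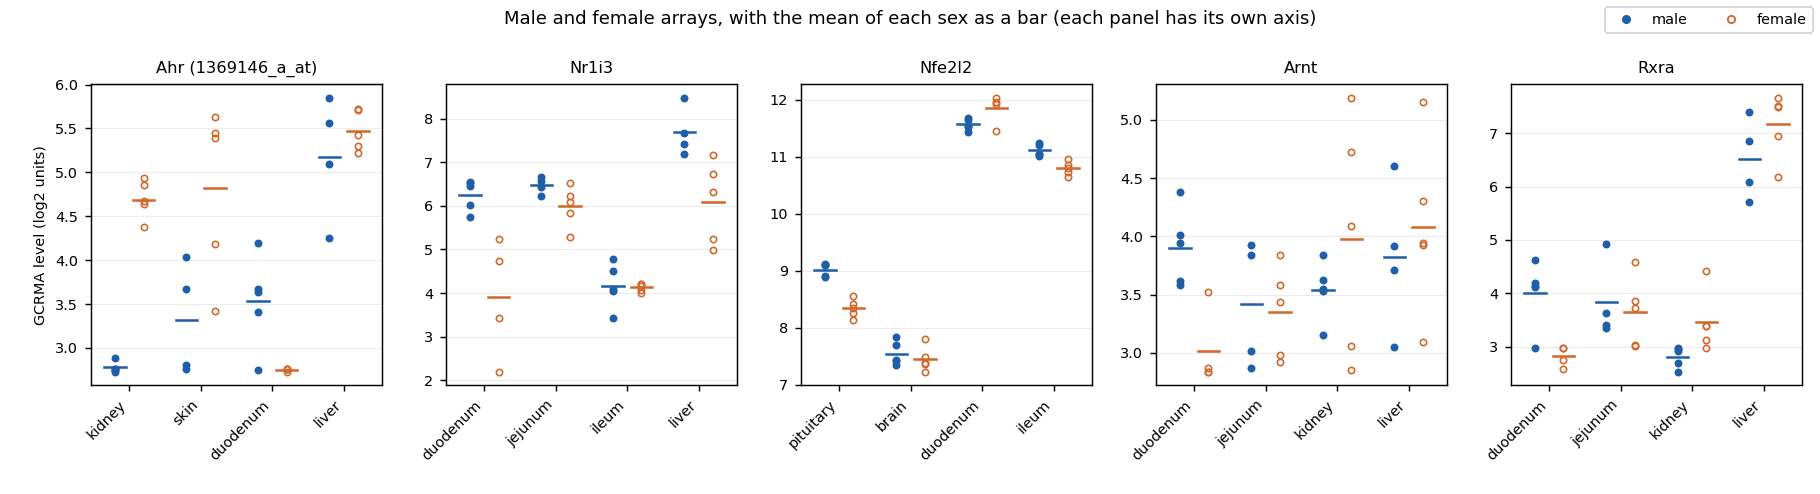
Log2 level in each male (left, filled) and female (right, open) array with the group mean as a bar, for Ahr, Nr1i3, Nfe2l2, Arnt and Rxra in 4 organs each, with an axis of its own per panel. Male and female arrays separate for Ahr in kidney, Nr1i3 in duodenum and liver, Arnt in duodenum, and Nfe2l2 in pituitary and ileum. They overlap for Rxra in duodenum and for Ahr in skin. Nr1i3 in liver and Nfe2l2 in ileum did not pass the adjusted threshold.

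In liver Nr1i3 read 8.48, 7.41, 7.68 and 7.20 in males and 6.73, 4.99, 5.23, 7.16 and 6.31 in females. The sexes did not overlap, although the highest female lay just under the lowest male, and 6.48% of all probesets did not overlap in liver. The means of 7.69 ± 0.56 in males and 6.09 ± 0.94 in females differed by 1.61 (SE 0.5, unadjusted p = 0.0119, limma adjusted p = 0.19). With 1 limma fit over all groups this difference met the rule for sexual dimorphism (adjusted p = 1.76e-13), which pools the spread over organs. Nr1i2 had 8.64 ± 0.25 in male and 9.09 ± 0.32 in female liver (difference -0.46, adjusted p = 0.334), and Rxra 6.52 ± 0.76 in male and 7.17 ± 0.61 in female liver (difference -0.65, adjusted p = 0.598). Hepatocyte markers were 13.79 to 14.04 in males and 13.73 to 13.94 in females, with 0 of 7 genes differing. Of 9 enterocyte markers 2 (Apoa4 and Cdh17) were higher in male liver, with list means of 6.64 to 6.88 in male and 5.79 to 6.1 in female arrays. Of 7 kidney proximal tubule markers 2 (Lrp2 and Slc22a8) were higher in male liver, with list means of 4.6 to 4.96 in male and 3.03 to 3.43 in female arrays. Without liver female 5, the array high in lung markers, the Nr1i3 difference was 1.66 (adjusted p = 0.259). The part of these markers in the Nr1i3 difference was not tested.

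Nfe2l2 was higher in male than in female pituitary. Males read 8.91, 9.12, 9.11, 8.89 and 9.11 and females 8.41, 8.26, 8.55, 8.35 and 8.14, with no overlap. The means of 9.02 ± 0.12 in male and 8.34 ± 0.16 in female pituitary (SD, 5 arrays per sex) differed by 0.68 (SE 0.084, limma adjusted p = 0.00227), or 1.6-fold, which is under the 2-fold limit of the study's rule. In pituitary 4.25% of all probesets were higher in males at this adjusted p, and the call was kept in all 22 alternatives run (adjusted p 0.000391 to 0.03). Hormone genes of the pituitary differed too: Cga, Tshb and Fshb were higher and Prl lower in males, and the list's mean was 13.3 to 13.56 in male and 12.35 to 12.97 in female arrays. Of 6 smooth muscle markers 2 (Tagln and Actg2) were lower in male pituitary, with list means of 4.67 to 5.13 in male and 4.98 to 5.78 in female arrays. Without the arrays that held adrenal cortex markers (male 1 and female 1) the Nfe2l2 difference was 0.73 (adjusted p = 0.0126). The part of the hormone and smooth muscle markers in the Nfe2l2 result was not tested.

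Further differences did not pass the adjusted threshold. Nfe2l2 in ileum was 11.12 ± 0.11 in males and 10.80 ± 0.12 in females with no overlap (0.32, adjusted p = 0.137), and in duodenum 11.57 ± 0.10 in males and 11.85 ± 0.27 in females (-0.27, adjusted p = 0.231). Arnt in heart averaged 4.31 ± 0.32 in males and 2.78 ± 0.85 in females (1.53, adjusted p = 0.815), where 1 male heart array was at odds with its sex label. The difference of Arnt in pituitary was -0.47 (adjusted p = 0.153), with no overlap. Nr1i2 in caecum averaged 6.62 ± 0.47 in males and 5.76 ± 0.59 in females (0.86, adjusted p = 0.795).

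Replicate numbers were taken as animals across organs, although adrenal, bone marrow and pituitary carry a separate run of sample numbers in the study's records, so that a number there may be another animal. Averaged over the 26 organs by that number, no member differed between 5 males and 5 females at an adjusted p under 0.05 in limma, against 1.41% of all probesets, and 1 of the 7 had an unadjusted p under 0.05. That was Nr1i3, with a difference of 0.15 (SE 0.049, unadjusted p = 0.0109, adjusted p = 0.152). Without female replicate 4 it was 0.20 (adjusted p = 0.0307), and without those 3 organs it was 0.18 (adjusted p = 0.158).

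Whether the sex difference depended on the organ was tested with the sex by tissue interaction over the 26 organs. It passed for Nr1i3 (F = 8.57, limma adjusted p = 9.86e-18), Ahr (F = 5.01, adjusted p = 2.11e-09), the other Ahr probeset 1369147_at (F = 3.54, adjusted p = 8.74e-06) and Nfe2l2 (F = 2.72, adjusted p = 0.000726), thus for 4 of 7 against 27.1% of all probesets. Without male replicate 3, which removes the high male gastrocnemius array, 1369147_at had F = 1.22 (adjusted p = 0.403). Nr1i2 (F = 1.14, adjusted p = 0.478), Arnt (F = 1.37, adjusted p = 0.258) and Rxra (F = 1.4, adjusted p = 0.229) did not pass. The test uses 1 spread per probeset for all groups. For Nr1i3 most organs were at the floor, while female duodenum had an SD of 1.37, so its adjusted p overstates the precision.

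For organ pairs chosen after the values had been seen, the Ahr sex difference in kidney was more negative than that in duodenum by -2.69 (adjusted p = 3.76e-12) and than that in liver by -1.62 (adjusted p = 7.32e-05), and differed from that in skin by -0.42 (SE 0.32, adjusted p = 0.785). The Nfe2l2 sex difference in pituitary minus that in brain was 0.59 (adjusted p = 0.103). These contrasts use 1 spread per probeset for all groups. For Ahr that spread (residual SD 0.35) was under the SD of male liver (0.7) and of female skin (0.97).

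Several genes known to be induced by these receptors met the study's rule for sexual dimorphism, which no member probeset met in any organ. In duodenum 5 of 17 PXR- and CAR-inducible genes met the study's rule, all higher in males, against 2.78% of all probesets in either direction. They were Abcc2 (8.22 ± 0.52 in males and 6 ± 0.84 in females, difference 2.22), Cyp3a18 (10.51 and 8.98, 1.53), Abcc3 (7.43 and 5.98, 1.45), Cyp3a9 (13.05 and 11.65, 1.41) and the P450 reductase Por (10.46 and 9.05, 1.41). In liver 2 were higher and 2 lower in males, against 0.825% of all probesets. Cyp3a2 was 13.94 ± 0.26 in males and 4.36 ± 1.89 in females (difference 9.58, adjusted p = 0.00156) and Cyp3a18 13.39 in males and 9.89 in females (3.5), while Cyp3a9 had 10.59 in males and 12.23 in females (-1.64) and the efflux pump Abcb1a differed by -1.49.

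Of 22 Nrf2-inducible genes in duodenum, 6 met the rule with higher values in males and 1 with lower values. In duodenum 2.78% of all probesets met it in either direction. Abcc2 and Abcc3 were among the 6 and were also counted in the PXR and CAR list above. Hmox1, the heme-degrading enzyme, was 7.05 ± 0.56 in males and 4.35 ± 0.7 in females (difference 2.70), Gsr 8.69 in males and 6.97 in females (1.72), and Srxn1 differed by 1.46, while Gsta1 was 6.63 in males and 7.95 in females (-1.31). The same enterocyte values stand beside these counts. In kidney 9 of the 22 were higher in males at an adjusted p under 0.05 and 0 lower, against 5.61% of all probesets higher in males. Those that met the rule (1.85% of all probesets in kidney) were Gsta1 (13.38 in males and 11.86 in females, 1.53), Akr7a3 (1.17) and Gstp1 (13.18 in males and 12.05 in females, 1.13). Nfe2l2 itself had no sex call in duodenum or kidney. In pituitary, where Nfe2l2 was higher in males, 1 of the 22 was higher in males at an adjusted p under 0.05 (Txn1, 0.29). There 4.25% of all probesets were higher in males, and 0 of the 22 met the rule. The list's median difference in pituitary was 0.11 (all probesets -0.01). In liver 4 of the 22 were higher in males (1.29% of all probesets), of which Akr7a3 (1.4) met the rule. In adrenal Hmox1 met it (0.886% of all probesets), with 4.02 in males and 7.35 in females (-3.33).

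Among receptors that pair with RXR alpha, the vitamin D receptor Vdr was higher in male duodenum (9.02 in males and 7.26 in females, 1.75) and lower in male kidney (-1.55), and Nr1h4 was higher in male duodenum (1.08). In pituitary Nr4a1 (7.29 in males and 10.80 in females, -3.51) and Nr4a2 (-2.61), both orphan receptors of the immediate-early type, were lower in males, as was the Ahr-inducible aldehyde dehydrogenase Aldh3a1 (5.97 in males and 7.84 in females, -1.87). The Nrf2 relative Nfe2l1 (1.59), the Nrf2 partner Mafk (1.48) and the Ahr-inducible Tiparp (1.20), which restrains Ahr, were higher in male duodenum. Nr3c1 was higher in male pituitary (1.13) and Nr0b2 lower in male adrenal (-1.10). Each of these met the study's rule, as did 1.17% of all probesets in pituitary.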

How the data were processed

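The authors hybridised RNA of each organ to Affymetrix RAE230_2 arrays, rejected RNA of low integrity and eliminated arrays that failed chip quality tests, mainly with signs of degraded RNA. The deposited values are log2 levels, background-corrected and normalised by the authors with GCRMA, whose version is not given in the sources used here. The paper does not state whether the arrays of all organs were normalised together. GCRMA pulls dim probesets to a common floor, which shortens fold changes of low genes. No level of a probeset was set against that of another. The annotation gave 1 symbol to 20826 of 31042 probesets, several to 436 and none to 9780.

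Sexes were compared within each organ with limma 3.58.1 (R 4.3.3), with Benjamini-Hochberg adjustment over all probesets. Organs, neighbours in a member's order and gut segments were compared in 1 fit of all 57 groups, with an organ's level taken as the mean of its sex means. That fit treats organs of 1 animal as independent. It also gives each probeset 1 spread for all groups, so that its SEs and adjusted p understate the spread of groups that vary more than most. Where nothing says otherwise, errors are SDs between animals, whose number limits the precision. The script was tested on simulated data. The members, gene lists and marker lists were chosen with earlier results of these data known. Named genes were the members, the 5 genes most like each member, a selection of the called genes of the lists, and known target genes such as Cyp1a1. Not every called gene of the lists is named. Tried alternatives were a t-test as in the methods, 1 fit over all groups, other thresholds, array centring, quantile normalisation, a replicate block, leaving out each replicate number of each sex, and leaving out arrays at odds with their sex label or with markers of another organ. The authors' supplementary lists were not used. Figures were drawn with Python 3.11.15 and matplotlib 3.10.9.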

Additional observations from a re-analysis of the deposited data

Results flagged for a closer look

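Each of the 7 probesets was examined in 51 groups of 4 or 5 arrays. Of these 357 combinations of probeset and group, 51 (14.3%) held an array whose gap to its nearest neighbour was large against the group's range, where chance gives about 1 in 20 groups. Most gaps were small: 6 exceeded 1 log2 unit. Nr1i2 had a low array in female jejunum (replicate 3 at 5.79, next 6.94) and a high one in male mesenteric lymph node (replicate 4 at 4.17, next 2.58). Ahr (1369146_a_at) had a high array in female colon (replicate 1 at 4.05, next 2.74). Rxra had high arrays in female kidney (replicate 2 at 4.42, next 3.39), male mandibular lymph node (replicate 5 at 3.78, next 2.56) and female pituitary (replicate 1 at 4.3, next 3). Other such arrays stood in groups of a called comparison: Ahr in male kidney (replicate 4 at 2.88, next 2.76), Arnt in female duodenum (replicate 1 at 3.52, next 2.87) and Nfe2l2 in male adrenal (replicate 2 at 11.3, next 11.17).

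The interaction test passed for Nr1i3 (F = 8.57), Ahr 1369146_a_at (F = 5.01), Ahr 1369147_at (F = 3.54) and Nfe2l2 (F = 2.72). The limits given above hold here too. Without male replicate 3, 1369147_at had F = 1.22, and the test's 1 spread per probeset overstates the precision for Nr1i3.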

How the results depend on the processing

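No called result changed direction in any alternative. The sex differences averaged over organs that lay near 0 took either sign over the alternatives, from -0.02 to 0.01 for Ahr 1369147_at, -0.05 to 0.06 for Arnt and -0.04 to 0.09 for Rxra, and none of these was called. The count of sex differences meeting the study's rule, 0 among the members, was 1 with 1 limma fit over all groups (Nr1i3 in liver), 1 with a 1.5-fold limit and 3 with no expression threshold. At an adjusted p under 0.05 alone, 5 differences became 2 with the methods' t-test, 11 with 1 fit over all groups, 1 when only expressed probesets were adjusted over, 2 at an adjusted p under 0.01, and 2 to 5 when replicate numbers were left out in turn. With the t-test the adjusted p was 0.0805 for Nr1i3, 0.0671 for Arnt and 0.0855 for Rxra in duodenum. The 14 organ differences (10 higher, 4 lower) became 37 (26 higher, 11 lower) with no expression threshold and 22 (9 lower) with a 1.5-fold limit, and 13 to 15 (10 to 10 higher, 3 to 5 lower) when they were left out. Likewise 16 to 20 neighbouring steps (19 with all arrays), 0 to 1 averaged sex differences and 3 to 4 interactions passed. Centring arrays on their medians gave organ ranges of 6.87 for Nr1i2, 5.29 for Nr1i3, 3.31 and 1.13 for Ahr 1369146_a_at and 1369147_at, and 4.54 for Nfe2l2. Leaving out replicate numbers gave 6.38 to 6.47 for Nr1i2, 4.69 to 4.95 for Nr1i3, 2.74 to 3.01 and 0.39 to 1.09 for the Ahr probesets, 3.14 to 3.36 for Arnt, 4.24 to 4.33 for Nfe2l2 and 4.35 to 4.65 for Rxra. The cause of these changes was not tested, beyond the limits that each alternative sets by construction. Of the values of single genes, 584 kept their side of the threshold, 39 lost it and 2 gained it.

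Male and female replicate numbers name different animals. In 0 of 26 organs did every same-numbered pair deviate together (r over 0.1), so the numbers were not taken as pairs. With the replicate number as a block, 3 in place of 5 sex differences had an adjusted p under 0.05 and 0 met the study's rule. Nr1i3 in duodenum then differed by 2.28 (adjusted p = 0.124) and Rxra by 1.03 (adjusted p = 0.194). With the block 14 organ differences, 21 neighbouring steps, 0 averaged differences and 4 interactions passed. Dim values limit Nr1i2, Nr1i3 and both Ahr probesets, whose organ means were under 3 in 19 to 31 of the 31 organs. The alternative without the 3 arrays that held markers of another organ was chosen after seeing the data and changed no call.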
